A study of Mus musculus with 6 samples.

Results

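Genes for the nuclear-encoded subunits of the mitochondrial respiratory chain were followed in sorted heart cells from infarcted and from normal mouse left ventricle. The set held 39 genes, taken by symbol from a named list of subunits of complexes I to V and cytochrome c, and 38 of them had a row among the 45038 genes of the deposited table. All 38 passed the filter on low values, which left 10168 genes. Cox4i1, a regulatory subunit of complex IV, was not analysed here. By complex, 15 of the 38 belonged to complex I, 4 to complex II, 5 to complex III, 1 was cytochrome c itself, 7 belonged to complex IV and 6 to complex V.

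The libraries came from C57BL/6 mice that carried Tie2-Cre and the Rosa-LSL-tdTomato reporter, so cells descended from Tie2-expressing cells were red in both groups. The Tie2 promoter is active in endothelium and in part of the blood lineage. The MI group (3 libraries, Ms1535, Ms1537 and Ms1608) was infarct tissue taken 3 weeks after ligation of the left anterior descending coronary artery in mice aged 6 to 8 weeks at surgery. The Normal group (3 libraries with the same numbers) was normal left ventricle labelled as without infarct surgery, and its own age or time point is not stated apart from that. In both groups tdTomato-positive cells that lacked the macrophage antigen F4/80 were sorted, and their RNA was amplified by T7 transcription before sequencing. Nothing in the labels says whether equal numbers mean one mouse or how many animals gave a library, so the p-values speak only for the spread among these libraries.

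The respiratory chain passes electrons from NADH (complex I) and succinate (complex II) by way of ubiquinone, complex III and cytochrome c to oxygen at complex IV, and complex V uses the resulting proton gradient to make ATP. A few core subunits of complexes I, III, IV and V are encoded in mitochondrial DNA, whereas complex II and all other subunits are made from nuclear genes. Heart muscle cells are among the richest in these proteins, while endothelial cells draw much of their ATP from glycolysis.

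Normal Ms1608 stood apart from the other 5 libraries. Over the tested genes, log2(FPKM + 1) correlated at 0.798 to 0.917 among those 5 and at 0.544 to 0.685 between them and Normal Ms1608. FPKM is the number of fragments per kilobase of transcript, scaled to the mapped total of the library. Summed over 15 endothelial markers, FPKM was 1967, 4789 and 1056 in the MI libraries Ms1535, Ms1537 and Ms1608, against 4706, 6275 and 72.1 in the Normal libraries of the same numbers. The sum over 15 leukocyte markers was 5599, 7653 and 8207 in MI, and 1408, 1702 and 11635 in Normal, again in that order. For 10 macrophage markers, which the sort should have lowered, the sum was 1107, 1755 and 2888 in MI, and 193, 292 and 4000 in Normal. Kdr, the main endothelial VEGF receptor, had 30.6, 63.1 and 11.9 FPKM in the MI libraries, against 73.9, 44.6 and 0.486 FPKM in the Normal libraries. Pecam1, of the same endothelial list, went the other way and was highest in Normal Ms1608, at 28.3 FPKM. The sum over 10 fibroblast markers was 5503, 5059 and 917 in MI, and 638, 824 and 213 in Normal. By limma, 7 of the 10 had an unadjusted p under 0.05 with MI higher, against 16.1% of all tested genes, and 0 were called. No endothelial, leukocyte or macrophage marker was listed at 0 in any library, and of the fibroblast markers Fap was listed at 0 in Normal Ms1608. Most differences are therefore given over all 6 libraries and also without Normal Ms1608. The part of this difference in cell markers in any result was not tested, and in sorted bulk samples fewer cells of a type and less RNA per cell cannot be told apart. From the spacing of low values the libraries held an implied 45.1, 38.3 and 32.2 M fragments (M for mega) in MI and 40.5, 32.5 and 34.7 M in Normal, whereas the labels state about 10 M reads, which was not reconciled. On a transcript of 1 kb, 3 fragments came to 0.0665 to 0.0932 FPKM, which covers counting error only. The lowest value of any subunit gene, 0.943 FPKM of Sdhd in Normal Ms1608, came to an implied 40.3 fragments.

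The subunit genes were among the more abundant messages of every library. Their median stood at the 95.0th, 94.0th and 94.6th percentile of the tested genes in MI, and at the 95.8th, 94.9th and 90.4th in Normal. Their median level was 126, 115 and 81.7 FPKM in the MI libraries and 90.6, 66.2 and 76.2 FPKM in the Normal libraries. Taken over all 6 libraries, the mean FPKM of a subunit gene had a median of 76.4 in complex I, 27.4 in complex II, 40.3 in complex III, 228 in complex IV and 193 in complex V. The lowest mean was that of Cycs, the gene for somatic cytochrome c, at 6.57 FPKM, and the highest was that of Cox6c, a small subunit of complex IV, at 1664 FPKM. Across the 38 genes, longer transcripts had lower levels (Spearman's rho -0.56 between log2 mean FPKM and log2 transcript length). This is across genes that share the same libraries, and is a description only.

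**Figure D1:**
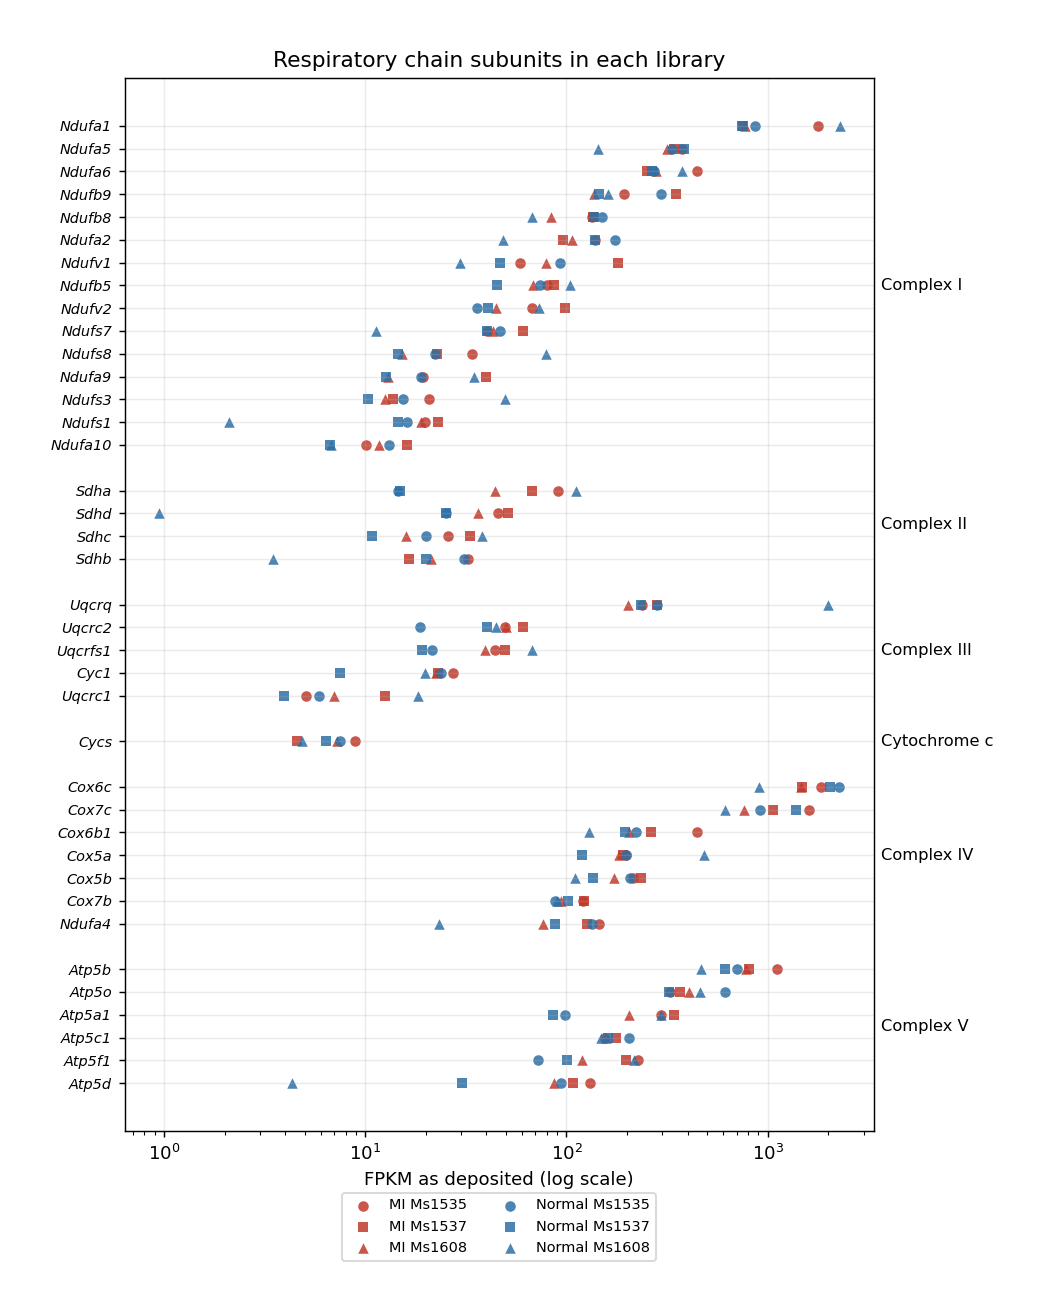
FPKM (log axis) of the 38 subunit genes in each library, red for MI and blue for Normal, with 1 marker shape per number, grouped by complex. Complex IV and V genes lie mostly above 100 FPKM and complex II genes mostly below it, with Normal Ms1608 furthest from the other libraries in many genes.

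No subunit gene passed the threshold between MI and Normal. With limma on log2(FPKM + 1), 0 of the 38 had an adjusted p under 0.05 in either direction, and 0 had an unadjusted p under 0.05. Over all tested genes, 0.00983% were called higher (1 gene, the small nuclear RNA Gm24890, named after its value was seen) and 0% lower, while 16.1% had an unadjusted p under 0.05 with MI higher and 0.207% with MI lower. The median log2 difference, MI minus Normal, was 0.32 over the 38 subunit genes, with a range of -1.09 to 2.11, against 0.78 over all tested genes. The subunit genes thus lay 0.47 below the general shift of the table at the median, and 6 of 38 lay above it. That distance was 0.05 under quantile scaling and turned round with no filter on low values, where the subunit genes lay 0.28 above the median of all genes. MI was numerically higher in 29 of 38 subunit genes (76.3%) as deposited, where 87.2% of all tested genes were. That split depended on scale, being 4 of 38 after median-ratio scaling, 7 after upper-quartile scaling and 16 after quantile scaling, while the median of all tested genes went to 0.02, 0.20 and -0.05. All 3 MI values exceeded all 3 Normal values in 4 subunit genes (10.5%), which were Atp5b, Uqcrc2, Ndufs1 and Sdhd, against 25% of all tested genes. In 0 subunit genes did all MI values lie below all Normal values, against 0.354% of all tested genes. As deposited, the share of subunit genes without overlap was thus below the background share for MI higher. After median-ratio scaling 0 subunit genes lay wholly above and 14 wholly below, against 7.82% and 6.05% of all tested genes.

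**Figure D2:**
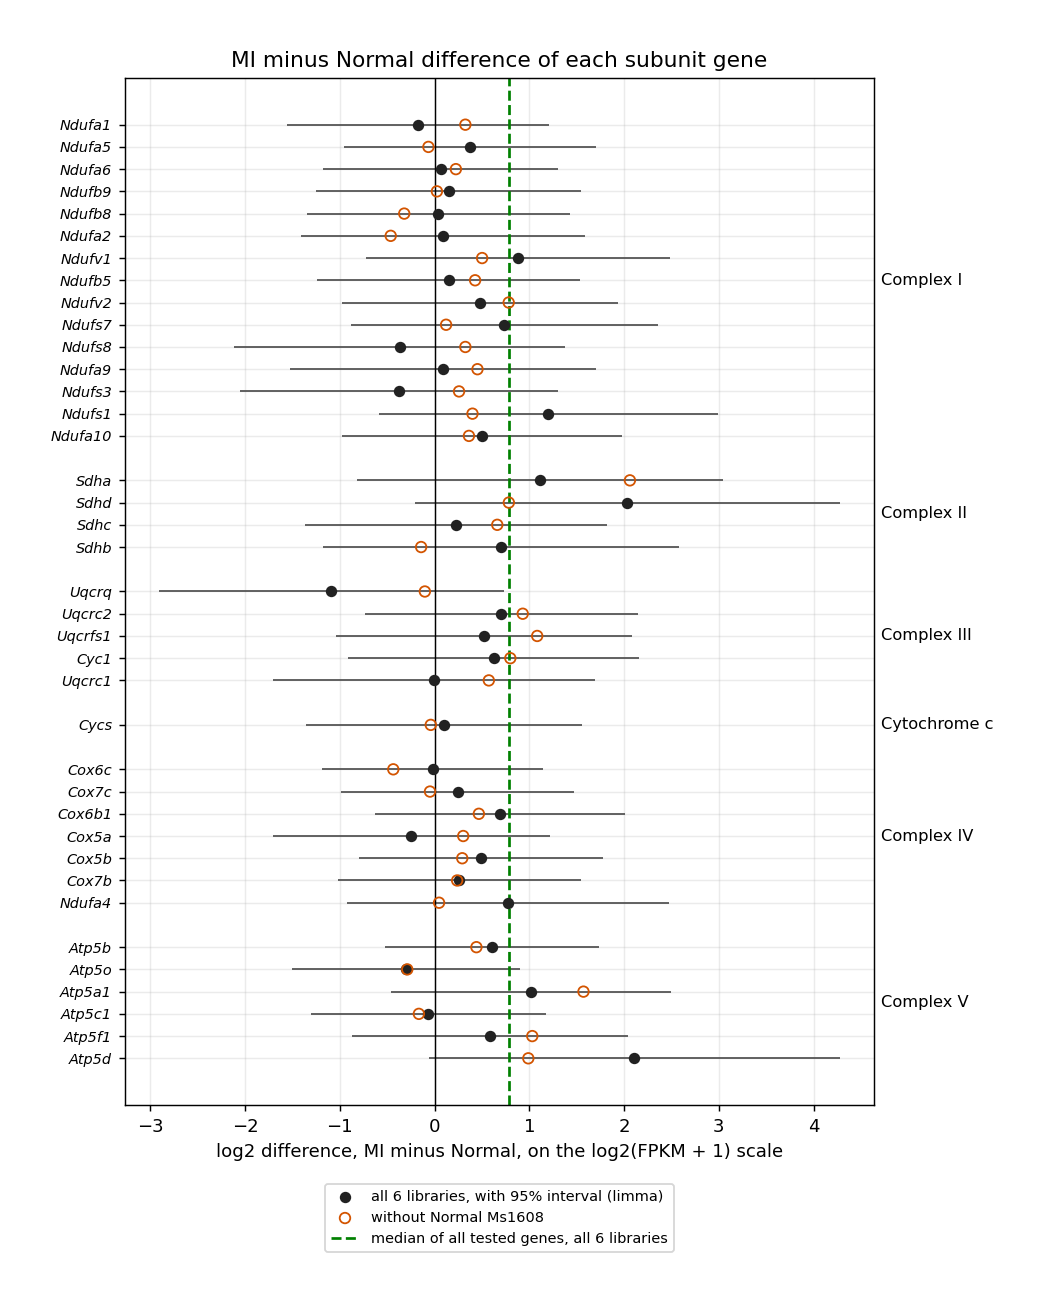
Log2 difference, MI minus Normal, of each subunit gene on the log2(FPKM + 1) scale with its 95% interval from limma, by complex, for all 6 libraries and without Normal Ms1608. All intervals over the 6 libraries cross 0, and the dashed line marks the median of all tested genes, 0.78, as deposited.

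Without Normal Ms1608 limma called 459 of all tested genes, where it called 1 over all 6 libraries. Of the 38, 1 then passed the adjusted threshold with limma, Sdha, and it was higher in MI (2.63% of the subunit genes, against 4.45% of all tested genes called higher and 0.0688% called lower). Unadjusted p was under 0.05 with MI higher in 4 (Sdha, Atp5a1, Atp5f1 and Uqcrfs1), or 10.5%, against 30.8% of all tested genes. With MI lower it was under 0.05 in 0 subunit genes, against 0.738%. All MI values lay above both remaining Normal values in 9 of 38 (23.7%), against 52.6% of all tested genes, and below both in 2 (Ndufb8 and Cox6c, 5.26%), against 1.75%. The median log2 difference was 0.33, with MI numerically higher in 28 of 38 (73.7%, against 87.7% of all tested genes).

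Complex II, succinate dehydrogenase, oxidises succinate to fumarate and is shared with the tricarboxylic acid cycle. Its 4 genes had a median log2 difference of 0.91, which was -0.08, 0.18 and 0.23 after scaling by median ratio, by upper quartile and by quantiles, and 0.72 without Normal Ms1608. The start regions of Sdha, Sdhb and Sdhd are shown, from RefSeq on GRCm38.p6, each from 250 bases before the annotated start. Sdhc had no matched window. Any link of these letters to differences between libraries was not tested. Capitals mark GCGC and TGCGC parted by any 1 base, a form of the motif bound by nuclear respiratory factor 1 (NRF1), and CCGGAAG, a core bound by ETS factors such as GABP, both searched on both strands. A match read on the opposite strand shows as GCGCA and GCGC parted by any 1 base, or as CTTCCGG. The windows are Sdha at chr13:74350211-74350490 (minus strand), Sdhb at chr4:140961021-140961300 (plus strand) and Sdhd at chr9:50603820-50604099 (minus strand).
Sdha: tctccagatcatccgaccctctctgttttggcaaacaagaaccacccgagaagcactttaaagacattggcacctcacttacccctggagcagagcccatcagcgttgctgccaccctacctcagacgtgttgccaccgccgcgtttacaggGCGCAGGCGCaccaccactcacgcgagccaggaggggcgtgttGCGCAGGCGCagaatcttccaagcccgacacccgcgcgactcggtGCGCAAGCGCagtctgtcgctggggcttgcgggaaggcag
Sdhb: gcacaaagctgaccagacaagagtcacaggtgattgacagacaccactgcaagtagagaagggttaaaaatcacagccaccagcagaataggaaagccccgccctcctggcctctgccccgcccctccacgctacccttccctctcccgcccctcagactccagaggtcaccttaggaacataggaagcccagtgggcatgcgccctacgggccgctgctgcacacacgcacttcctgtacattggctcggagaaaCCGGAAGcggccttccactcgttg
Sdhd: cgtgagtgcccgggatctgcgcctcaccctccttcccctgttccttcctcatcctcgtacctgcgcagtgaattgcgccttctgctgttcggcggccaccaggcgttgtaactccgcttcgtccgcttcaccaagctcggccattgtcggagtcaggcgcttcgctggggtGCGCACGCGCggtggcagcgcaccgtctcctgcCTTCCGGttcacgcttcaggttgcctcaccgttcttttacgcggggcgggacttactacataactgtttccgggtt
In these letters Sdha held the NRF1 motif 3 times and no ETS core, Sdhb held 1 ETS core and no NRF1 motif, and Sdhd held 1 of each. The NRF1 motif was in 8 of 32 windows of 29 matched subunit genes (25.0%), against 1512 of 32851 RefSeq windows (4.6%). CCGGAAG was in 5 (15.6%), against 8.86% of all windows, and AAGATGGC, the core of YY1, was in 4 (12.5%), against 2.75%. None of these 3 motifs contains another, windows were not matched on base composition, and a match describes letters and not binding.

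Sdha encodes the flavoprotein that holds the succinate site and lies at chr13:74322254-74350280 on GRCm38. Its level was 90.3, 67.2 and 44.4 FPKM in the MI libraries Ms1535, Ms1537 and Ms1608, against 14.6, 14.8 and 112 FPKM in the Normal libraries of those numbers. All MI values exceeded the first 2 Normal values, and Normal Ms1608 was the highest of the 6. Over all libraries the means were 67.3 ± 23.0 FPKM in the MI libraries, against 47.2 ± 56.2 FPKM in the Normal libraries (SD, n = 3 each), with a log2 difference of 1.11 by limma (SE 0.86, adjusted p = 0.509). After scaling by median ratio, by upper quartile and by quantiles that difference was 0.099, 0.40 and 0.68. Without Normal Ms1608 the log2 difference was 2.06 by limma (SE 0.46, adjusted p = 0.0448), and the MI mean was 4.57 times that of the remaining 2 Normal libraries. Over the 6 runs that left out 1 library each, the limma adjusted p of Sdha went between 0.0448 and 0.817. The 2 libraries with the least Sdha, Normal Ms1535 and Ms1537, also had the lowest leukocyte and macrophage marker sums. Adgre1, C1qa and C1qc, of the macrophage list, were instead lowest in Normal Ms1608. The fibroblast sum was instead lowest in Normal Ms1608, where Sdha was highest. The part of any of these cells in the difference was not tested.

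Sdhb, the iron-sulphur subunit (chr4:140961203-140979193), had 32.4, 16.6 and 21.2 FPKM in the MI libraries, against 31.0, 20.0 and 3.48 FPKM in the Normal libraries. The groups overlapped, and only Normal Ms1608 was far below the rest. Its log2 difference was 0.70 by limma (SE 0.84, adjusted p = 0.685), and -0.14 without Normal Ms1608. Sdhc, one of the pair of membrane anchors that bind ubiquinone, had 25.7, 33.3 and 15.9 FPKM in the MI libraries, against 20.0, 10.8 and 38.1 FPKM in the Normal libraries. Here Normal Ms1608 was the highest library and the groups overlapped (limma log2 difference 0.22, SE 0.72, adjusted p = 0.891, and 0.66 without Normal Ms1608). Sdhd, the other anchor (chr9:50596357-50603812), had 45.5, 51.4 and 36.5 FPKM in the MI libraries, against 25.1, 25.2 and 0.943 FPKM in the Normal libraries. All MI values were above all Normal values, yet the log2 difference of 2.03 (SE 1.00) had a limma adjusted p of 0.327, and it was 0.78 (limma adjusted p = 0.225) without Normal Ms1608.

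Ratios within a library do not depend on any scaling by 1 factor per library, though quantile scaling can alter them. The FPKM of Sdha over that of Sdhb was 2.79, 4.05 and 2.09 in MI, and 0.470, 0.741 and 32.2 in Normal. The ratio of Sdhd over Sdhc was 1.77, 1.54 and 2.30 in MI, and 1.25, 2.34 and 0.0247 in Normal. In both pairs the 3 MI libraries lay close together while Normal Ms1608 lay far outside the range of the other libraries. These pairs were chosen after their values were seen and carry no test.

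**Figure D3:**
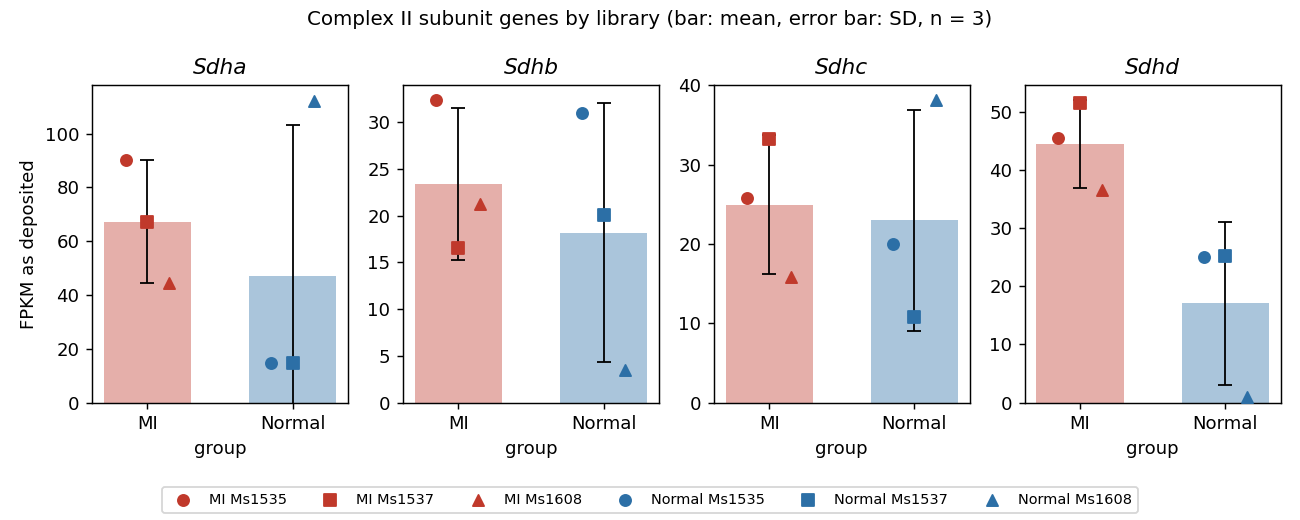
FPKM of the 4 complex II genes by library, MI left of Normal, with the mean and SD of each group (n = 3 each). Normal Ms1608 is the highest library for Sdha and Sdhc and the lowest for Sdhb and Sdhd. The axis starts at 0 and cuts the lower error bar of Sdha in Normal.

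Complex I, the NADH dehydrogenase, had a median log2 difference of 0.15 over its 15 genes, which was -0.89, -0.60 and -0.24 after scaling by median ratio, by upper quartile and by quantiles. It was 0.33 without Normal Ms1608 and reached 0.43 without MI Ms1608. Ndufs1, the largest iron-sulphur subunit of the electron input arm, had the highest difference. Its level was 19.7, 22.9 and 18.9 FPKM in the MI libraries, against 16.1, 14.5 and 2.10 FPKM in the Normal libraries. The groups did not overlap, and Normal Ms1608 was far below the others. The log2 difference was 1.20 by limma (SE 0.80, adjusted p = 0.445), and 0.40 without that library. Ndufs1 shares exon bases on the opposite strand with Eef1b2, an elongation factor gene at 1653 to 4481 FPKM, and the strand setting of the counting is not given in the sources used here. Ndufv1, the flavoprotein that takes electrons from NADH, had 58.5, 180 and 79.5 FPKM in the MI libraries, against 93.3, 47.0 and 29.6 FPKM in the Normal libraries. Its groups overlapped, with MI Ms1537 the highest, and the log2 difference was 0.88 by limma (SE 0.72, adjusted p = 0.528), and 0.50 without Normal Ms1608.

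Ndufs3 and Ndufs8, core subunits of the arm that passes electrons to ubiquinone, had the lowest differences in complex I. Ndufs3 had 20.8, 13.7 and 12.5 FPKM in the MI libraries, against 15.4, 10.3 and 49.3 FPKM in the Normal libraries. Ndufs8, which carries iron-sulphur centres, had 33.9, 22.7 and 15.2 FPKM in the MI libraries, against 22.1, 14.6 and 79.2 FPKM in the Normal libraries. In both genes Normal Ms1608 was the highest library and the other 5 overlapped. The log2 differences were -0.37 by limma (SE 0.75, adjusted p = 0.826) for Ndufs3 and -0.37 by limma (SE 0.78, adjusted p = 0.834) for Ndufs8, and became 0.26 and 0.33 without Normal Ms1608. Ndufa1, a small membrane-arm subunit and the most abundant in complex I, had 1786, 749 and 772 FPKM in the MI libraries, against 863, 754 and 2276 FPKM in the Normal libraries. One library in each group was high, and the groups overlapped (limma log2 difference -0.17, SE 0.62, adjusted p = 0.904, and 0.33 without Normal Ms1608). Ndufa10, an accessory subunit and the least abundant, had 10.1, 16.0 and 11.6 FPKM in the MI libraries, against 13.1, 6.67 and 6.76 FPKM in the Normal libraries (limma log2 difference 0.50, SE 0.66, adjusted p = 0.716, and 0.36 without Normal Ms1608). The other 9 genes, which were Ndufa2, Ndufa5, Ndufa6, Ndufa9, Ndufb5, Ndufb8, Ndufb9, Ndufs7 and Ndufv2, had mean levels from 23.1 FPKM (Ndufa9) to 317 FPKM (Ndufa5) and log2 differences from 0.04 (Ndufb8) to 0.74 (Ndufs7).

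Complex III passes electrons on to cytochrome c. Its 5 genes had a median log2 difference of 0.52, which was -0.49, -0.20 and -0.03 after scaling by median ratio, by upper quartile and by quantiles. It was 0.80 without Normal Ms1608, 0.28 without Normal Ms1535 and 0.15 without Normal Ms1537. Uqcrc2, a core scaffold subunit, had 49.7, 61.0 and 50.2 FPKM in the MI libraries, against 18.7, 40.3 and 44.7 FPKM in the Normal libraries. The groups did not overlap, and Normal Ms1535 was the lowest (limma log2 difference 0.70, SE 0.65, adjusted p = 0.581, and 0.93 without Normal Ms1608). Uqcrfs1, the Rieske iron-sulphur protein, had 44.3, 49.8 and 39.3 FPKM in the MI libraries, against 21.5, 19.2 and 67.4 FPKM in the Normal libraries. The 3 MI values lay between the first 2 Normal values and Normal Ms1608. Its log2 difference was 0.52 by limma (SE 0.70, adjusted p = 0.722) and 1.08 without that library by limma (SE 0.42, adjusted p = 0.127).

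Uqcrq, a small subunit near the ubiquinone site, had the lowest difference of all 38 genes. Its level was 239, 281 and 203 FPKM in the MI libraries, against 280, 234 and 2004 FPKM in the Normal libraries. Normal Ms1608 was the highest by far, and the other 5 libraries lay between 203 and 281 FPKM. The log2 difference was -1.09 by limma (SE 0.82, adjusted p = 0.493) and -0.10 without that library. Uqcrc1, the other core scaffold subunit, had 5.05, 12.6 and 7.02 FPKM in the MI libraries, against 5.92, 3.95 and 18.3 FPKM in the Normal libraries. Cyc1, the cytochrome c1 haem protein, had 27.4, 23.0 and 22.4 FPKM in the MI libraries, against 23.7, 7.45 and 19.8 FPKM in the Normal libraries. Both overlapped between groups, with log2 differences of -0.002 by limma (SE 0.76, adjusted p = 0.999) and 0.63 by limma (SE 0.69, adjusted p = 0.653), which were 0.57 and 0.80 without Normal Ms1608. Without Normal Ms1537, its lowest library, Cyc1 was at 0.15. Cycs, the mobile carrier, had 8.88, 4.60 and 7.22 FPKM in the MI libraries, against 7.46, 6.38 and 4.87 FPKM in the Normal libraries, with overlap (limma log2 difference 0.10, SE 0.65, adjusted p = 0.947, and -0.04 without Normal Ms1608). Cycs had 9 near-identical copies in the annotation, and those in the table summed to 36.8% of its own mean FPKM, so its level is uncertain.

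Complex IV, cytochrome c oxidase, reduces oxygen to water. The 7 genes analysed had a median log2 difference of 0.26, which was -0.77, -0.48 and -0.03 after scaling by median ratio, by upper quartile and by quantiles. It was 0.24 without Normal Ms1608, 0.44 without Normal Ms1537 and 0.50 without MI Ms1608. In 0 of the 7 did the groups separate over all 6 libraries, against 25% of all tested genes with MI above and 0.354% with MI below. Ndufa4, a subunit once assigned to complex I, had 145, 127 and 76.4 FPKM in the MI libraries, against 134, 87.8 and 23.3 FPKM in the Normal libraries (limma log2 difference 0.77, SE 0.76, adjusted p = 0.612, and 0.05 without Normal Ms1608). Cox6b1, which joins the monomers of the dimer, had 444, 264 and 204 FPKM in the MI libraries, against 221, 195 and 130 FPKM in the Normal libraries (limma log2 difference 0.69, SE 0.59, adjusted p = 0.550, and 0.47 without Normal Ms1608). Both overlapped, with Normal Ms1608 the lowest library in each. Cox5a, a matrix-side subunit, had 198, 190 and 182 FPKM in the MI libraries, against 197, 120 and 481 FPKM in the Normal libraries, so that the MI values lay within the Normal range (limma log2 difference -0.24, SE 0.65, adjusted p = 0.871, and 0.30 without Normal Ms1608). Cox6c had 1842, 1485 and 1459 FPKM in the MI libraries, against 2254, 2041 and 903 FPKM in the Normal libraries. The MI libraries were all below the first 2 Normal libraries and above Normal Ms1608. Its log2 difference was -0.02 by limma (SE 0.52, adjusted p = 0.991) and -0.44 without Normal Ms1608 (limma adjusted p = 0.385). The other 3, Cox5b, Cox7b and Cox7c, had log2 differences from 0.25 (Cox7c) to 0.49 (Cox5b), and near-identical copies of Cox7c summed to 10.8% of its level.

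Complex V, the ATP synthase, had a median log2 difference of 0.59 over 6 genes, which was -0.44, -0.15 and 0.35 after scaling by median ratio, by upper quartile and by quantiles. It was 0.72 without Normal Ms1608. Atp5d, the delta subunit of the central stalk, had the highest difference of all 38 genes and lies at chr10:80138632-80145818. Its level was 131, 108 and 86.5 FPKM in the MI libraries, against 93.5, 30.3 and 4.32 FPKM in the Normal libraries. The groups overlapped only through Normal Ms1535 and MI Ms1608, and Normal Ms1608 was the lowest. The means were 108 ± 22.2 FPKM in the MI libraries, against 42.7 ± 45.9 FPKM in the Normal libraries (SD, n = 3 each), with a log2 difference of 2.11 (SE 0.97, 95% interval -0.06 to 4.27, limma adjusted p = 0.308). Without Normal Ms1608 the difference was 0.99 (limma adjusted p = 0.227).

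Atp5a1 and Atp5b encode the alpha and beta subunits, which form the catalytic head in equal number. Atp5b had 1107, 810 and 785 FPKM in the MI libraries, against 701, 610 and 467 FPKM in the Normal libraries. The groups did not overlap (limma log2 difference 0.60, SE 0.51, adjusted p = 0.539, and 0.44 without Normal Ms1608). Atp5a1 had 297, 341 and 204 FPKM in the MI libraries, against 98.4, 85.4 and 293 FPKM in the Normal libraries. All MI values exceeded those of Normal Ms1535 and Ms1537, while Normal Ms1608 lay within the MI range. The log2 difference was 1.02 by limma (SE 0.66, adjusted p = 0.434) and 1.57 without Normal Ms1608 by limma (SE 0.41, adjusted p = 0.0622), where the MI mean was 3.05 times the Normal mean. The FPKM of Atp5a1 over that of Atp5b was 0.268, 0.422 and 0.260 in MI and 0.140, 0.140 and 0.629 in Normal, a pair chosen after its values were seen.

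Atp5f1, the peripheral stalk subunit b, had 226, 199 and 120 FPKM in the MI libraries, against 72.3, 101 and 218 FPKM in the Normal libraries, with the same placing of Normal Ms1608 inside the MI range. It was among the 4 genes with an unadjusted p under 0.05 without that library and is given for that reason. Its limma log2 difference was 0.58 over all 6 libraries (SE 0.65, adjusted p = 0.658) and 1.03 without Normal Ms1608 (SE 0.45, adjusted p = 0.153). Atp5o, which links the stalk to the head, had 326, 366 and 407 FPKM in the MI libraries, against 614, 323 and 461 FPKM in the Normal libraries (limma log2 difference -0.30, SE 0.54, adjusted p = 0.798, and -0.29 without Normal Ms1608). Atp5c1, the gamma subunit of the rotor shaft, had 155, 175 and 157 FPKM in the MI libraries, against 205, 162 and 148 FPKM in the Normal libraries (limma log2 difference -0.07, SE 0.56, adjusted p = 0.962, and -0.17 without Normal Ms1608). Both of these overlapped, and the 6 values of Atp5c1 were the closest together of the complex V genes named here.

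Normal Ms1608 departed from the other Normal libraries in the subunit genes at shares close to those of the whole table. Against the mean of the other 2 Normal libraries, 12 of 38 subunit genes (31.6%) were over 2-fold higher in it and 11 (28.9%) over 2-fold lower, where 34.2% and 31.7% of all tested genes were. It was the highest of the 6 libraries in 10 subunit genes (26.3%, against 26.8% of all tested genes) and the lowest in 16 (42.1%, against 44.1%). The ratio to the other Normal libraries reached 7.80 for Uqcrq, 7.61 for Sdha and 4.32 for Ndufs8, and went down to 0.0375 for Sdhd, 0.0697 for Atp5d and 0.136 for Sdhb. Subunits of one complex thus lay on opposite sides in that library. Over the 38 genes, log2(FPKM + 1) correlated at 0.937 to 0.980 among the other 5 libraries and at 0.738 to 0.782 with Normal Ms1608, as a description across genes.

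**Figure D4:**
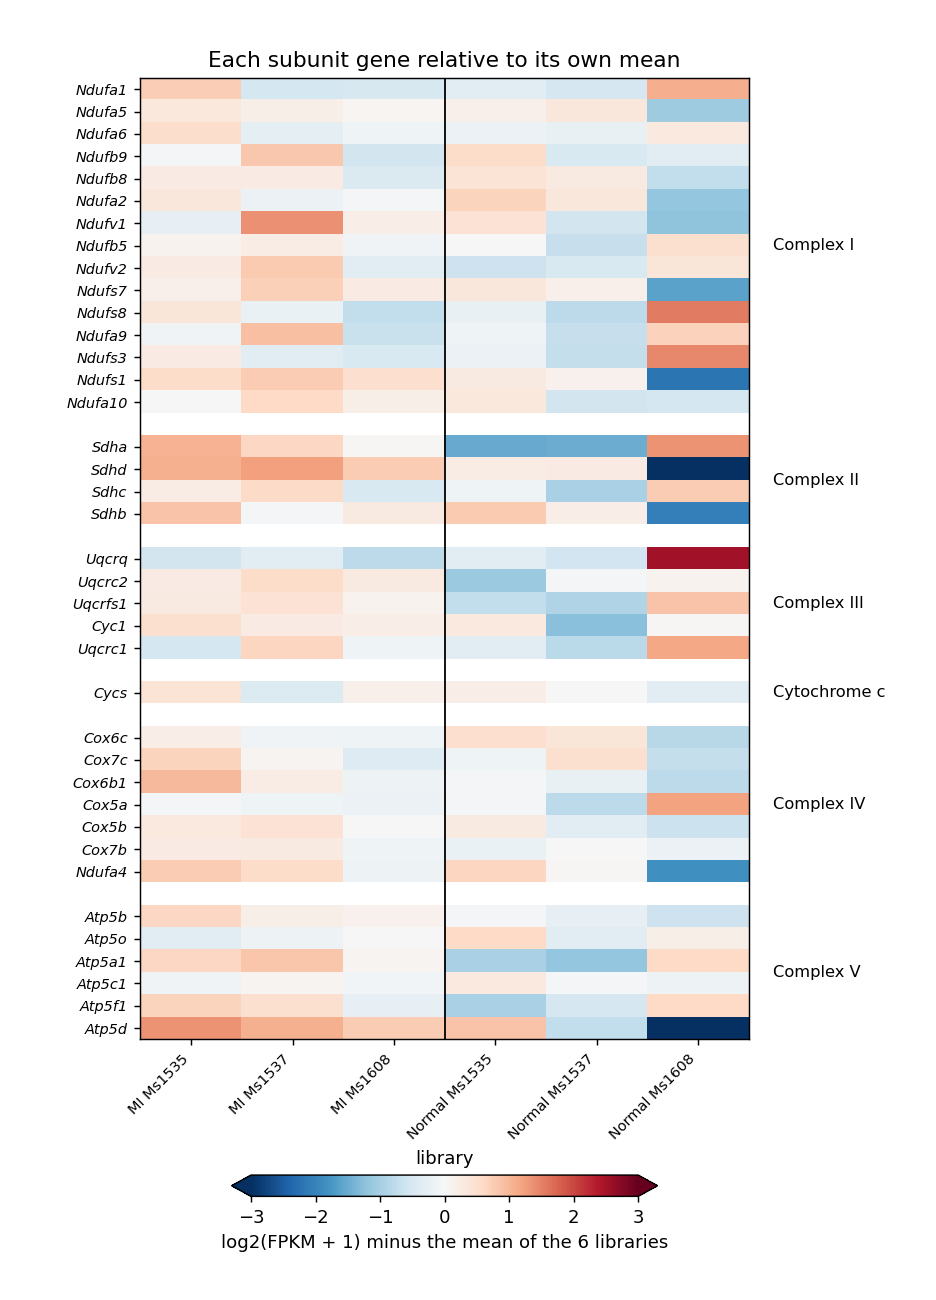
Log2(FPKM + 1) of each subunit gene minus its own mean over the 6 libraries, MI columns left of Normal columns, genes grouped by complex. The strongest colours, in both directions, are in the Normal Ms1608 column, with Uqcrq highest and Sdhd and Atp5d lowest.

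Related genes were read from further lists, and those named are among the genes with the lowest unadjusted p of their list. Of 40 other nuclear-encoded subunits, 39 were tested, 0 were called and 0 had an unadjusted p under 0.05 with limma. Their median log2 difference was 0.26 as deposited, and -0.74, -0.45 and -0.12 after scaling by median ratio, by upper quartile and by quantiles. It was 0.16 without Normal Ms1608. All MI values lay above all Normal values in 4 of 39, against 25% of all tested genes. Atp5g1, a complex V subunit, had the lowest unadjusted p of the 39, and its groups did not overlap. Its limma log2 difference was 1.53 (adjusted p = 0.344), and 0.72 without Normal Ms1608. Ndufa13, a complex I subunit, came next (limma log2 difference 1.34, adjusted p = 0.37, and 0.75 without Normal Ms1608). Ndufa12, a complex I accessory subunit, had 90.3, 75.9 and 52.5 FPKM in the MI libraries, against 64.3, 42.3 and 1.41 FPKM in the Normal libraries, with Normal Ms1608 lowest (limma log2 difference 1.93, adjusted p = 0.394, and 0.44 without Normal Ms1608). Of 39 assembly factors, which build the complexes, 34 were tested and 0 were called, with a median log2 difference of 0.78, and 0.50 without Normal Ms1608. Of these 34, 1 had an unadjusted p under 0.05 by limma with MI higher, against 16.1% of all tested genes. It was Cox15, a haem A synthesis enzyme (limma log2 difference 1.26, adjusted p = 0.252, and 1.12 without Normal Ms1608). Its level was low, at 3.16, 2.23 and 1.10 FPKM in the MI libraries, against 0.883, 0.0372 and 0.0461 FPKM in the Normal libraries.

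Of 16 genes of the tricarboxylic acid cycle and pyruvate entry, 15 were tested and 0 were called by limma, with a median log2 difference of 0.76 against 0.78 over all tested genes, and 0.91 without Normal Ms1608. Pdhb, a subunit of pyruvate dehydrogenase, had 39.5, 51.2 and 23.9 FPKM in the MI libraries, against 21.1, 11.5 and 5.28 FPKM in the Normal libraries. Its groups did not overlap (limma log2 difference 1.64, SE 0.73, adjusted p = 0.302, and 1.18 without Normal Ms1608). Of 12 regulators of mitochondrial biogenesis, 9 were tested and 0 were called, with a median of 0.87, and 0.88 without Normal Ms1608. Pprc1, a coactivator related to PGC-1alpha, had 31.0, 15.0 and 14.4 FPKM in the MI libraries, against 3.80, 1.72 and 0.0937 FPKM in the Normal libraries. The groups did not overlap (limma log2 difference 3.04, SE 0.77, adjusted p = 0.245), and without Normal Ms1608 it passed the threshold, higher in MI (2.46, limma adjusted p = 0.0442). Gabpa, the DNA-binding subunit of the ETS factor GABP, had 8.86, 6.44 and 2.51 FPKM in the MI libraries, against 1.16, 1.32 and 0.0719 FPKM in the Normal libraries, also without overlap (limma log2 difference 1.86, SE 0.63, adjusted p = 0.252, and 1.51 without Normal Ms1608). Of all tested genes, 25% had every MI value above every Normal value, and 4.45% were called higher by limma without Normal Ms1608. Values after scaling are not given for these lists.

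Isoforms that replace some complex IV subunits in striated muscle were read beside the cardiomyocyte markers. The sum over 12 cardiomyocyte markers was 250, 152 and 1196 FPKM in the MI libraries, against 918, 518 and 9.95 FPKM in the Normal libraries, with Ckm listed at 0 in MI Ms1537 and Tnnc1 and Nppa listed at 0 in Normal Ms1608. Cox7a1, a muscle isoform of complex IV, had 12.6, 7.03 and 40.4 FPKM in the MI libraries, against 22.4, 25.5 and 0.300 FPKM in the Normal libraries. Cox6a2, another, had 10.0, 0.317 and 44.4 FPKM in the MI libraries, against 27.0, 28.4 and 0.453 FPKM in the Normal libraries. Cox8b, the third, had 0.233, 2.67 and 9.01 FPKM in the MI libraries, against 6.21 and 7.79 FPKM in the Normal libraries Ms1535 and Ms1537, and it was listed at 0 in Normal Ms1608. In these genes and in the marker sum MI Ms1608 was the highest library, and limma called none of them (adjusted p = 0.742 for Cox7a1, 0.933 for Cox6a2 and 0.945 for Cox8b). Cox7a1 over Cox7a2, its counterpart outside muscle, was 0.0862, 0.0886 and 0.525 in MI and 0.163, 0.207 and 0.00196 in Normal, so every library held more of the general isoform. The part of heart muscle RNA in the levels of the 38 subunit genes was not tested.

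Of the 13 mitochondrially encoded subunits, 8 passed the filter and 0 were called by limma. The number listed at 0 was 5, 0 and 11 in MI and 9, 7 and 0 in Normal. As cells need these genes, a 0 can be a failed estimate, and their levels were not set against those of the nuclear-encoded subunits. mt-Nd2, a complex I subunit above 0 in all libraries, had 7235, 4654 and 24104 FPKM in the MI libraries, against 14912, 20746 and 1476 FPKM in the Normal libraries. MI Ms1608 was the highest and Normal Ms1608 the lowest, and the groups overlapped.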

How the data were processed

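The deposited table holds FPKM values made by the authors, 1 column per library. STAR 2.4.2a, Cufflinks 2.2.1 and the build GRCm38 (mm10) are named in the submitters' processing notes. The annotation release, strand setting and treatment of multi-mapping reads are not given in the sources used here. T7 amplification of little RNA, per the labels' protocols, may widen the spread between libraries, and reads of near-identical copies (at least 90% identity over at least 80% of the coding sequence, BLAST 2.17.0) could be split. Of the 38 subunit genes, 12 had such a copy and 12 shared exon bases with a gene on the opposite strand.

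Genes that reached 1 FPKM in 3 or more of the 6 libraries were tested with limma 3.58.1 (R 4.3.3) on log2(FPKM + 1), with a mean-variance trend, group as the only term and Benjamini-Hochberg adjustment over all 10168 genes at 0.05. Folds on this scale understate changes of low genes. An exact two-sided permutation test of 3 against 3 cannot give a p under 0.1, and none was used. The procedure was tested on simulated data with independent normal values and the same SD in every library. They held no outlying library and no shift of a whole library, so that test does not cover these features of the data.

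Values per library are given for all members of complexes II and III and for Cycs. In complexes I, IV and V they are given for the genes with the highest and lowest mean and the 2 highest and 2 lowest differences. Genes of each other list were taken from the up to 3 with the lowest unadjusted p, so those genes are ones that differ most by that measure. The mitochondrially encoded and muscle isoform genes could be named freely. Kdr, Adgre1 and some markers listed at 0 were also named outside the rule on p. The members, lists and tests were chosen with earlier results of these data known. Alternatives were other pseudocounts, filters and scalings, no trend, a replicate block and leaving out each library. Depth was read from low values, of which 79.6% to 85.6% lay within 0.1 of a whole number of fragments (20% if evenly spread), with the step fitted to the same values. Positions are from GENCODE on GRCm38 and promoter windows from RefSeq, GRCm38.p6.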

Additional observations from a re-analysis of the deposited data

How the results depend on the processing

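No subunit gene passed the adjusted threshold (limma) under any alternative but 1, the run without Normal Ms1608, so the number called went between 0 and 1, and the number of all tested genes called between 1 and 459, when each library was left out. The 2 called without MI Ms1537 were Gm24890 and RP23-440C1.3. The number of subunit genes with an unadjusted p under 0.05 by limma was 0 as reported, against 1656 of the 10168 tested genes. It was 2 under median-ratio scaling (Uqcrq and Atp5o), 2 under upper-quartile scaling (Uqcrq and Cox5a) and 1 under quantile scaling (Uqcrq), all lower in MI. Of all tested genes, 477, 595 and 506 had such a p under those scalings. With a library left out it was 0 to 4, against 868 to 3209 of all tested genes. The number without overlap between groups was 4 as reported and 4 to 11 with a library left out. It was 11 without Normal Ms1535, all with MI above, against 34.4% of all tested genes, and 11 without Normal Ms1608, 9 above and 2 below, against 52.6% and 1.75%. It was 14 under median-ratio scaling, all of them lower in MI, where 6.05% of all tested genes were lower and 7.82% higher without overlap. The median log2 difference was 0.32 as reported and -0.72, -0.42 and -0.094 under median-ratio, upper-quartile and quantile scaling. In the same order it was -0.89, -0.60 and -0.24 for complex I, -0.079, 0.18 and 0.23 for complex II, -0.49, -0.20 and -0.028 for complex III, -0.77, -0.48 and -0.033 for complex IV, and -0.74, -0.45 and -0.12 for the other subunits, and for complex V -0.44 and -0.15 under the first 2. The median relative to all tested genes was -0.47 as reported, -0.81 with a pseudocount of 0.1, -0.093 with a pseudocount of 5, 0.28 with no filter, -0.73 under median-ratio scaling and -0.048 under quantile scaling. With a library left out the median was 0.28 to 0.50 for all subunit genes, 0.16 to 0.43 for complex I, 0.66 to 1.06 for II, 0.15 to 0.80 for III, 0.20 to 0.50 for IV and 0.42 to 0.78 for V. Why the scalings differ was not tested.

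Of the 25 named subunit genes, 12 changed sign under median-ratio scaling, where the log2 difference was -0.44 for Ndufa10, -0.14 for Ndufv1, -0.26 for Sdhb, -0.77 for Sdhc, -0.31 for Uqcrc2, -0.49 for Uqcrfs1, -0.36 for Cyc1, -0.78 for Cycs, -0.25 for Ndufa4, -0.34 for Cox6b1, -0.019 for Atp5a1 and -0.44 for Atp5b. Under upper-quartile scaling 9 did, at -0.19 for Ndufa10, -0.032 for Sdhb, -0.48 for Sdhc, -0.024 for Uqcrc2, -0.20 for Uqcrfs1, -0.076 for Cyc1, -0.55 for Cycs, -0.052 for Cox6b1 and -0.14 for Atp5b. Under quantile scaling 5 did, at -0.39 for Ndufa10, -0.22 for Sdhb, -0.39 for Sdhc, -0.028 for Cyc1 and -0.89 for Cycs. With a pseudocount of 0.1, Uqcrc1 was at 0.017. Sign changes with a library left out gave ranges of -0.58 to 0.33 for Ndufa1, -0.82 to 0.26 for Ndufs3, -0.86 to 0.33 for Ndufs8, -0.14 to 1.28 for Sdhb, -0.20 to 0.66 for Sdhc, -0.41 to 0.57 for Uqcrc1, -0.078 to 0.33 for Cycs, -0.70 to 0.30 for Cox5a, -0.44 to 0.22 for Cox6c and -0.17 to 0.065 for Atp5c1. Under every alternative tried the sign was kept by Sdha (0.099 to 2.06), Sdhd (0.78 to 2.66), Atp5d (0.99 to 3.07), Ndufs1 (0.18 to 1.63), Uqcrq (-2.13 to -0.10) and Atp5o (-1.34 to -0.081). With a library left out and no change of sign, values of several genes moved by over 1.5 times, and the following are examples. Ndufa4 went to 0.048 (without Normal Ms1608) and 1.28 (without Normal Ms1535), and Ndufv1 to 0.42 (without MI Ms1537). Cox6b1 went to 0.38 (without MI Ms1535) and Uqcrc2 to 0.32 (without Normal Ms1535). Without Normal Ms1535 and without Normal Ms1537, Uqcrfs1 went to 0.28 and 0.20, Sdha to 0.63 and 0.64, and Atp5o to -0.081 and -0.54. Ndufa10 went to 0.79 (without Normal Ms1535) and 0.33 (without MI Ms1537).

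With the replicate number as a block, 0 subunit genes and 1 gene in all were called by limma. Unadjusted p was then under 0.05 in 1 subunit gene (Atp5d), against 1845 of all tested genes. The deviations of libraries with the same number correlated at -0.052, 0.098 and 0.087, and those of libraries with different numbers at -0.115 to 0.104. With 3 libraries a group, and Normal Ms1608 far from the others, this cannot settle whether the numbers pair the samples. The main fit left the number out. Scaling together with leaving out Normal Ms1608 was not run. With 3 libraries a group, the intervals of most genes cover both a doubling and no difference.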
